A study of Mus musculus with 12 samples.

Results

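The genes described here are the costimulatory receptors *Cd28*, *Icos* and *Cd226* and the B7 ligands *Cd80*, *Cd86*, *Cd274* and *Pdcd1lg2*, taken by gene symbol from the counts of primed CD4+ T cells. They are 7 of the 40840 gene symbols counted. The cells were donor OTII cells, CD4+ T cells whose transgenic receptor recognizes an OVA peptide, which had been transferred into recipients that were WT or *Il6*-/-. All recipients were sensitized intranasally with HDM extract of high endotoxin content (HDM with LPS) together with OVA, and the OTII cells were recovered from the mLNs by sorting, on Day 3 or on Day 5. The 4 groups were therefore WT Day 3, *Il6*-/- Day 3, WT Day 5 and *Il6*-/- Day 5, each with 3 libraries. *Il6* was absent from the recipients only and the donor cells were of the same kind in every group, so *Il6* reads in the sorted cells cannot check the genotype labels, and the IL-6 missing from an *Il6*-/- recipient is that of all its own cells rather than of 1 cell type. The sample labels name blood as the tissue and leave out LPS, and the series text counts days from another start than the paper does; the paper was followed in each case. No source says whether the 3 libraries of a group came from separate animals or from pools, so p values measure the spread between these libraries.

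A T cell needs a second signal besides its antigen receptor to be fully activated. CD28 gives it when it binds CD80 or CD86 on an antigen-presenting cell, and CTLA4 competes for the same ligands. ICOS is a relative of CD28 that appears after activation, binds ICOSL and is needed for T follicular helper cells, whereas CD226 binds nectin-family ligands that it shares with the inhibitory receptor TIGIT. PD-L1, encoded by *Cd274*, and PD-L2, encoded by *Pdcd1lg2*, bind PD-1 and restrain the T cell. B7 ligands are best known from B cells and dendritic cells, but activated T cells can make some of them.

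Between 16125947 and 26111657 reads were counted on genes in each library, with a median of 19727354, and levels are given as CPM, counts scaled to a common library size with TMM factors. Of the 7 genes, 6 were measured with at least 54 reads in each library, and *Cd80* with 3 to 18. All 7 were among the 13570 genes that passed the filter on low counts. Differences are log2 fold changes (log2FC) from edgeR with their SE, and FDRs were adjusted over all genes tested. The 7 genes were chosen by symbol with their measured levels and genotype differences in these libraries already known, so their counts and FDRs describe them and are no independent evidence. In bulk RNA, fewer cells with a transcript and less of it per cell cannot be told apart.

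The clearest differences were seen on Day 3. OTII cells from *Il6*-/- recipients had 6.44-fold more *Cd86* and 2.05-fold less *Icos* than those from WT recipients, with *Cd226* and *Pdcd1lg2* also higher and *Cd28* lower. At an FDR under 0.05, the *Il6*-/- group was higher for 3 of the 7 genes and lower for 2 on Day 3. Of all genes tested, 13.7% passed, 7.52% higher and 6.19% lower. The 3 libraries of *Il6*-/- recipients did not overlap those of WT recipients for 6 of the 7 genes, which was so for 36.2% of all genes. On Day 5, 2 of the 7 genes passed, *Cd86* and *Cd274*, both higher in *Il6*-/- recipients, and 4.61% of all genes did (1.27% higher). The median log2FC of the 7 genes was 0.62 on Day 3 and 0.42 on Day 5, beside 0.01 and 0.01 for all genes tested. The genotype difference changed between the days for 2 of the 7, *Icos* and *Cd86*, and for 4.92% of all genes. On Day 5, 4 of the 7 genes did not overlap between the genotypes, as against 19.6% of all genes.

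**Figure D1:**
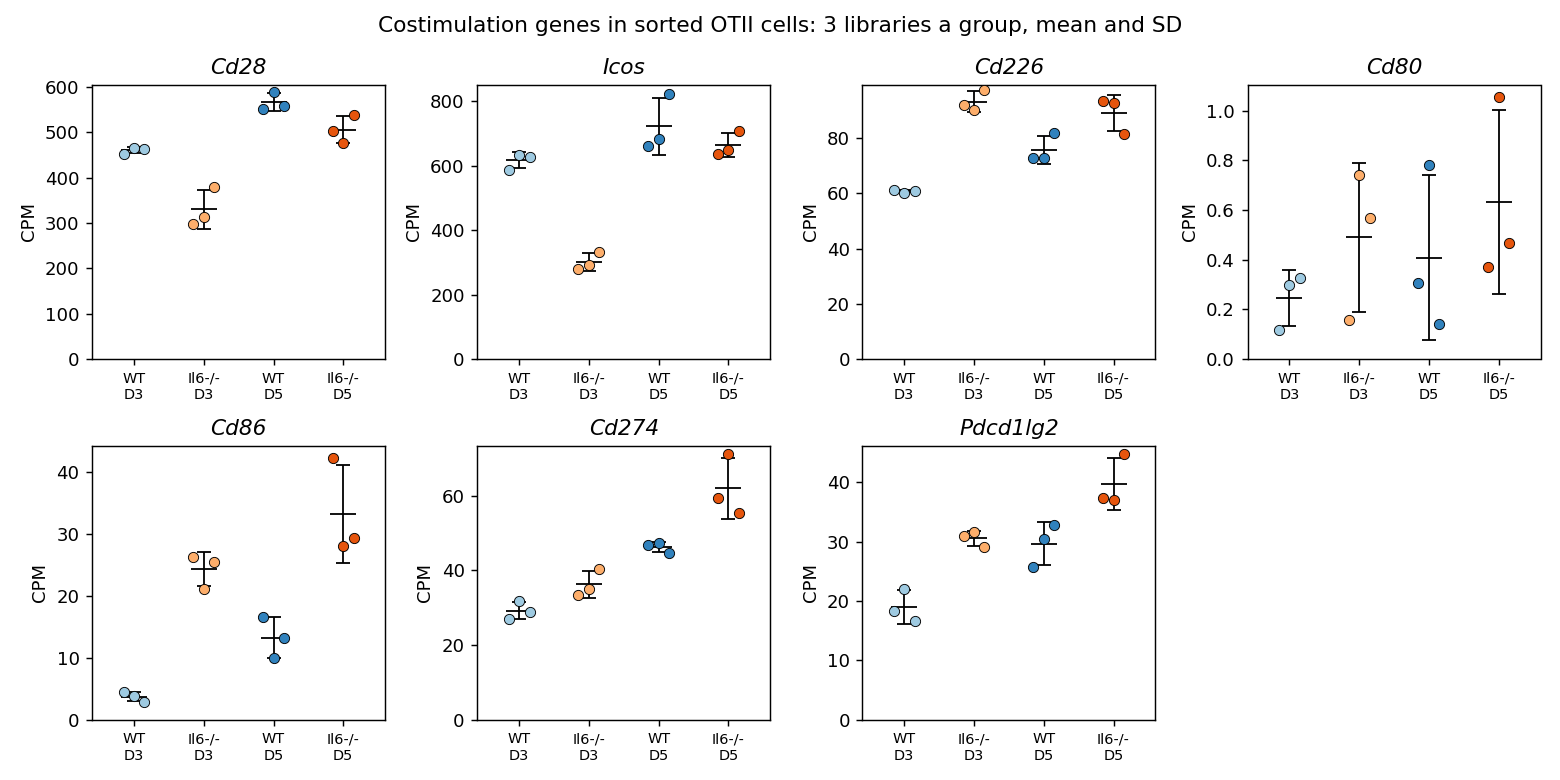
Level of each of the 7 genes in CPM (vertical axes, from 0, a different scale for each gene) in the 4 groups, with a point for each library and a bar for the mean and SD of 3 libraries. *Icos* and *Cd28* are lowest in *Il6*-/- Day 3, *Cd86* is lowest in WT Day 3 (2.93 to 4.45 CPM), and *Cd80* stays near 1 CPM or under.

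Among the receptors, *Cd28* encodes the founding member of the family. Its levels on Day 3 were 452, 466 and 463 CPM in WT recipients and 297, 313 and 379 CPM in *Il6*-/- recipients. On Day 5 they were 551, 589 and 558 CPM in WT recipients and 502, 477 and 537 CPM in *Il6*-/- recipients. The genotypes did not overlap on either day, and each WT library lay above each *Il6*-/- library of the same day. The log2FC of *Il6*-/- against WT was -0.48 ± 0.09 (SE; edgeR FDR = 0.00181) on Day 3 and -0.16 ± 0.09 (FDR = 0.309) on Day 5. The change between these effects, 0.32 ± 0.12, did not pass (FDR = 0.152), so a difference between the days was not shown for *Cd28*. Without the third *Il6*-/- Day 3 library, the highest of its group, this change was 0.43 with an FDR of 0.039.

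*Icos*, whose product is induced by activation, showed a larger difference. The WT Day 3 libraries held 589, 635 and 629 CPM of *Icos*, and the *Il6*-/- Day 3 libraries 278, 292 and 334 CPM. On Day 5 the levels were 661, 684 and 824 CPM in WT and 638, 648 and 708 CPM in *Il6*-/- recipients. All *Il6*-/- libraries of Day 3 were thus far under the other 9, whereas the genotypes overlapped on Day 5. The log2FC was -1.04 ± 0.09 (SE; FDR = 9.57e-06) on Day 3 and -0.12 ± 0.09 (FDR = 0.512) on Day 5. The difference between the days was itself tested, at 0.91 ± 0.13 (FDR = 0.00299), and it passed under each of the 22 alternatives run.

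*Cd226* went the other way. In WT recipients its levels were 61.2, 60.3 and 61 CPM on Day 3 and 72.9, 72.8 and 81.7 CPM on Day 5. In *Il6*-/- recipients they were 92.1, 90.3 and 97.4 CPM on Day 3 and 93.3, 92.6 and 81.6 CPM on Day 5. The WT Day 3 libraries, which lay within 1 CPM of each other, were the lowest of all 12, and the third *Il6*-/- Day 5 library overlapped the third WT library of that day. The log2FC was 0.62 ± 0.08 (FDR = 1.98e-04) on Day 3 and 0.23 ± 0.08 (FDR = 0.110) on Day 5. The change between the days was -0.38 ± 0.11 and did not pass (FDR = 0.0631).

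**Figure D2:**
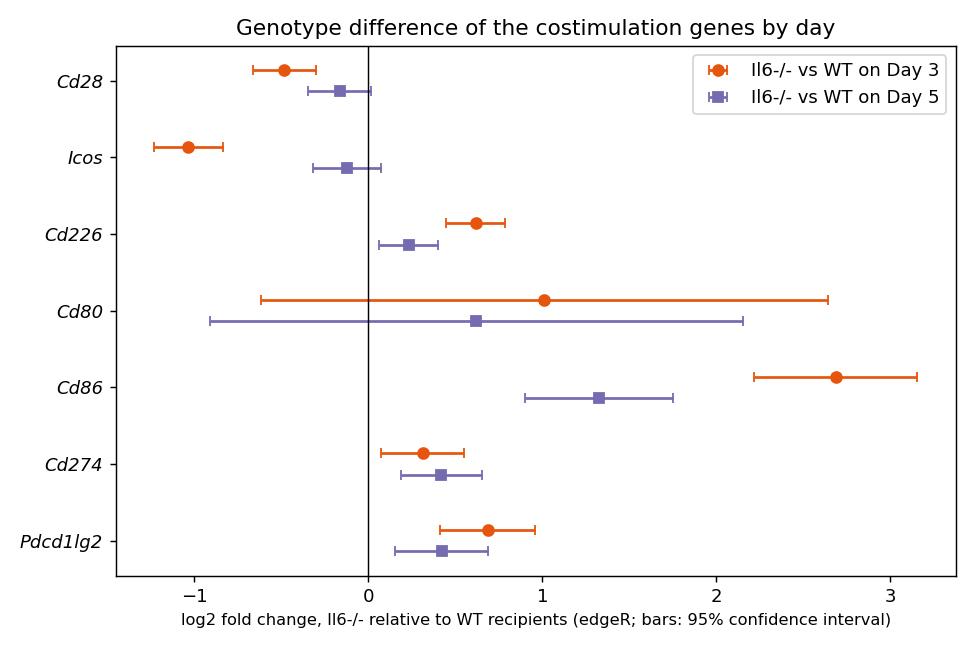
Log2 fold change of *Il6*-/- relative to WT recipients (horizontal axis) for each of the 7 genes on Day 3 (circles) and Day 5 (squares), with 95% confidence intervals from the edgeR fit of 12 libraries. *Icos* lies at -1.04 on Day 3 and -0.12 on Day 5, *Cd86* at 2.69 and 1.33, and the intervals of *Cd80* span 0 on both days.

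*Cd86* encodes the B7-2 ligand of CD28 and CTLA4. Its levels on Day 3 were 4.45, 3.86 and 2.93 CPM in WT recipients and 26.3, 21.2 and 25.5 CPM in *Il6*-/- recipients. On Day 5 they were 16.6, 9.97 and 13.2 CPM in WT and 42.3, 28.1 and 29.4 CPM in *Il6*-/- recipients. No 2 of the 4 groups overlapped, and even on Day 5 the WT libraries stayed under the *Il6*-/- libraries of Day 3. In reads, the WT Day 3 libraries had 54 to 114 on *Cd86* and the *Il6*-/- Day 3 libraries 400 to 539. The log2FC was 2.69 ± 0.22 (FDR = 7.74e-06) on Day 3 and 1.33 ± 0.20 (FDR = 0.00250) on Day 5. The difference was smaller on Day 5 by 1.36 ± 0.29 on the log2 scale (the tested value is -1.36, FDR = 0.0182). That test no longer passed without the third WT Day 3 library (-1.22, FDR = 0.0559) or without the first *Il6*-/- Day 3 library (-1.30, FDR = 0.0524).

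*Cd80* encodes B7-1, the other ligand of CD28 and CTLA4, and was barely detected. The reads per library were 3, 6 and 6 in WT Day 3, 3, 14 and 12 in *Il6*-/- Day 3, 6, 15 and 3 in WT Day 5, and 7, 18 and 9 in *Il6*-/- Day 5. All neighbouring groups overlapped. The 95% confidence interval of its log2FC ran from -0.62 to 2.64 on Day 3 and from -0.91 to 2.15 on Day 5, so neither a fall below the WT level nor a rise like that of *Cd86* on Day 5 was distinguishable at this depth.

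The PD-1 ligands were both higher in *Il6*-/- recipients, by less than 2-fold. *Cd274* (PD-L1) stood at 27.0, 31.7 and 28.9 CPM in WT and 33.5, 34.9 and 40.4 CPM in *Il6*-/- recipients on Day 3. On Day 5 it stood at 46.9, 47.3 and 44.8 CPM in WT and 59.3, 71.2 and 55.4 CPM in *Il6*-/- recipients. The groups followed each other without overlap, from WT Day 3 through *Il6*-/- Day 3 and WT Day 5 to *Il6*-/- Day 5. The log2FC of genotype was 0.31 ± 0.11 (FDR = 0.0770) on Day 3, which did not pass, and 0.42 ± 0.11 (FDR = 0.0400) on Day 5, which did. The Day 5 value did not pass when the 6 libraries of that day were fitted alone (FDR = 0.0882), nor without any 1 of 7 single libraries (FDR = 0.0507 to 0.150), which were WT Day 5 replicates 1 to 3, *Il6*-/- Day 5 replicate 2, WT Day 3 replicate 3 and *Il6*-/- Day 3 replicates 1 and 2. The change between the days was 0.11 ± 0.16 (FDR = 0.755).

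*Pdcd1lg2* (PD-L2) measured 18.3, 22.1 and 16.6 CPM in WT and 30.9, 31.6 and 29.1 CPM in *Il6*-/- recipients on Day 3. On Day 5 it measured 25.7, 30.4 and 32.8 CPM in WT and 37.3, 37.0 and 44.7 CPM in *Il6*-/- recipients. The genotypes were apart on both days, and WT Day 5 overlapped *Il6*-/- Day 3. The log2FC was 0.69 ± 0.13 (FDR = 0.00245) on Day 3 and 0.42 ± 0.13 (FDR = 0.0697) on Day 5. Same-numbered libraries of Day 5 deviated together, and with replicate number as a block the Day 5 value was 0.42 with an FDR of 0.0153 and passed. It also passed with no filter on low counts (FDR = 0.0258), with DESeq2 (FDR = 0.0223) and without WT Day 5 replicate 3 (FDR = 0.0403). Its change between the days was -0.26 ± 0.18 (FDR = 0.444).

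The 7 genes lie in few places of the genome (GRCm39, GENCODE vM39). *Cd28* (chr1:60755959-60812518) and *Icos* (chr1:61017086-61039479) flank *Ctla4* on the plus strand, with gaps of 113.6 and 62.1 kb. Both were lower in *Il6*-/- than in WT recipients on Day 3, while *Ctla4* between them did not pass. *Cd274* (chr19:29344529-29365495) and *Pdcd1lg2* (chr19:29388319-29448882) are neighbours on the plus strand of chromosome 19, 22.8 kb apart. *Cd86* (chr16:36424044-36486443, minus strand) and *Cd80* (chr16:38275923-38316697, plus strand) are both on chromosome 16, 1789.5 kb apart. Reads were counted without regard to strand, and exons of *Cd274* overlap those of *Plgrkt* and *Gm36043* over 800 bases, those of *Cd80* overlap *Timmdc1* over 276 bases, and those of *Cd226* overlap *Dok6* over 79 bases. *Cd28*, *Icos*, *Cd86* and *Pdcd1lg2* share no exon bases with another counted gene.

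RefSeq promoters (GRCm38.p6) are given for 3 of the 7 genes, all ligands. Those of the receptors and of *Cd86* are not shown, and no motif result is given for them. The motif matches therefore describe the 3 shown and not the 7 genes as a set. The promoters shown are those of *Cd80*, which was near its detection limit, and of the neighbours *Cd274* and *Pdcd1lg2* (r = 0.81 over 12 libraries). Each is the 250 bases before the start on the plus strand, 5′ to 3′, for *Cd80* at chr16:38458683-38458932, for *Cd274* at chr19:29367188-29367437 and for *Pdcd1lg2* at chr19:29410669-29410918. Capitals mark an AP-1 motif (TGANTCA) in *Cd80* and a STAT6-type motif (TTCNNNNGAA) in *Pdcd1lg2*.
Cd80: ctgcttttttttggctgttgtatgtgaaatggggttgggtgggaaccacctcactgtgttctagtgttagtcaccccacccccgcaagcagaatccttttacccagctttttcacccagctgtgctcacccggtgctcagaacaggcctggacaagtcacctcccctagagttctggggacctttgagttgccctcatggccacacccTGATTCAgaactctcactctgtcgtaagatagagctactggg
Cd274: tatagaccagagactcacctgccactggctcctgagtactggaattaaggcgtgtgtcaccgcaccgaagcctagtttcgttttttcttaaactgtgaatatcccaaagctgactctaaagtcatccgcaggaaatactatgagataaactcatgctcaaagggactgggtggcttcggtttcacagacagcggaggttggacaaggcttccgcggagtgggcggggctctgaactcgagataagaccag
Pdcd1lg2: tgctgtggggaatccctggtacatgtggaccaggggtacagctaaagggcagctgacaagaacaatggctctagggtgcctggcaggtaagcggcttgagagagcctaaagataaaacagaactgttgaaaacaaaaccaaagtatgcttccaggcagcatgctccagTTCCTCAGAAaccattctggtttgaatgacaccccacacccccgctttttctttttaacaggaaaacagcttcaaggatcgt
Both strands were searched. The AP-1 match of *Cd80* lies 42 to 36 bases before the start, and 6.75% of 32851 promoters of this length hold this motif. The STAT6-type match of *Pdcd1lg2* lies 82 to 73 bases before the start, and 5.85% of promoters hold one. In *Cd274* neither motif was found, and in none of the 3 were a STAT motif (TTCNNNGAA, in 7.02% of promoters), an IRF motif (GAAANNGAAA, 2.98%) or an NF-kappaB motif (GGGANNTTCC, 1.21%). All 3 hold an E-box (CANNTG), as 66.2% of promoters do. A match is a run of letters and was not tested for binding.

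Between the days, *Cd86* rose most in WT recipients and *Icos* in *Il6*-/- recipients. In WT recipients, 6 of the 7 genes were higher on Day 5 and none lower, with *Cd80* not passing. At the same threshold, 56.7% of all genes differed between the days and 29.5% were higher. The WT increase of *Cd86* was 1.81 ± 0.22 on the log2 scale (FDR = 5.81e-06), that of *Cd274* 0.66 ± 0.11 (FDR = 1.18e-04) and that of *Pdcd1lg2* 0.64 ± 0.13 (FDR = 5.53e-04). The receptors rose less, *Cd226* by 0.32, *Cd28* by 0.30 and *Icos* by 0.23, and the *Icos* value (FDR = 0.0449) did not pass under 11 of 23 alternatives.

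In *Il6*-/- recipients, 4 of the 7 genes were higher on Day 5 and none lower, where 60.5% of all genes differed and 30.4% were higher. *Icos* rose by 1.14 ± 0.09 (FDR = 8.72e-08), *Cd274* by 0.77 ± 0.11 (FDR = 2.20e-05), *Cd28* by 0.62 ± 0.09 (FDR = 1.81e-05) and *Pdcd1lg2* by 0.38 ± 0.13 (FDR = 0.0167). The *Pdcd1lg2* value did not pass without the third *Il6*-/- library of Day 3 (FDR = 0.0639) or of Day 5 (FDR = 0.0907). The day difference of *Cd86* was 0.45 ± 0.19 with an FDR of 0.0555, and it passed under 11 of 23 alternatives. For *Cd226* it was -0.07 ± 0.08 (FDR = 0.489), with its sign turned by upper-quartile scaling (0.16) and by no scaling (0.09). The genotype and day comparisons share libraries, so their values stand side by side and were not correlated.

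Per kb of exon, levels can be set beside each other between genes. *Icos* was the most abundant of the 7 transcripts in each group, with a mean of 87.8 CPM per kb in *Il6*-/- Day 3 and 180 to 211 in the other groups. *Cd28* followed with 53.9 CPM per kb in *Il6*-/- Day 3 and 75.2 to 92.5 in the other groups. *Cd226* lay between 12.2 and 18.7, *Pdcd1lg2* between 8.31 and 17.4 and *Cd274* between 7.16 and 15.2 CPM per kb. *Cd86* ranged from 0.973 CPM per kb in WT Day 3 to 8.64 in *Il6*-/- Day 5, and *Cd80* from 0.0597 to 0.153. The exon length is that of all annotated exons of a gene joined, which understates genes with long exons that are seldom used.

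The ratio of *Icos* to *Cd28* within a library, per kb, was 2.32 to 2.43 in WT Day 3 and 1.57 to 1.67 in *Il6*-/- Day 3. It was 2.07 to 2.63 in WT Day 5 and 2.27 to 2.42 in *Il6*-/- Day 5. The ratio was thus lowest in the *Il6*-/- Day 3 libraries, where *Icos* was further under its WT level than *Cd28*, and the other 3 groups overlapped. The ratio of *Cd86* to *Cd28* was 0.0101 to 0.0156 in WT Day 3 and 0.107 to 0.141 in *Il6*-/- Day 3, and on Day 5 it was 0.0269 to 0.0479 in WT and 0.0870 to 0.134 in *Il6*-/- recipients. Here the genotypes were apart on both days. The ratio of *Cd274* to *Pdcd1lg2* was 0.606 to 0.777 in *Il6*-/- Day 3, under the 0.805 to 0.977 of WT Day 3, and on Day 5 the genotypes overlapped.

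**Figure D3:**
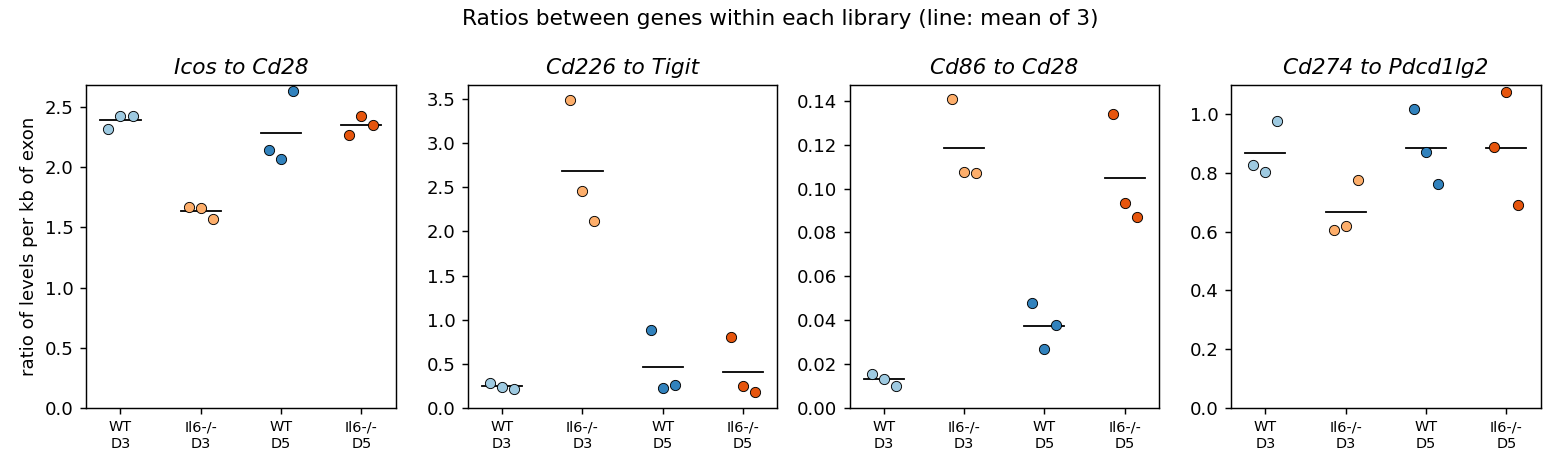
Ratio between the levels of 2 genes per kb of exon within each library (vertical axes, from 0), with a point for each library and a line for the mean of the 3 libraries of a group. The *Icos* to *Cd28* ratio is lowest in *Il6*-/- Day 3 (1.57 to 1.67), and the *Cd226* to *Tigit* ratio is highest there (2.12 to 3.50).

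Of 8 other genes listed with the CD28 and B7 families (HVEM, a TNF receptor family member, is among them as the partner of BTLA), 6 were tested. On Day 3 none was higher and 3 were lower in *Il6*-/- recipients, where 6.19% of all genes were lower. The 3 were *Vsir*, which encodes the inhibitory molecule VISTA (log2FC -0.77, FDR = 7.41e-04), *Tnfrsf14*, which encodes the receptor HVEM (-0.43, FDR = 0.00350), and *Btla*, which encodes an inhibitory receptor for HVEM (-0.38, FDR = 0.0112). *Vsir* is named by its rise between the days, and the other 2 were chosen after their values were seen. These calls were made again with DESeq2 and limma-voom, but that of *Btla* was lost without WT Day 3 replicate 2 or *Il6*-/- Day 3 replicate 1 or 2. On Day 5 none of the 6 passed with edgeR or limma-voom, 2 had an unadjusted p under 0.05, and 1 passed with DESeq2. The genotype difference changed between the days for *Btla* (0.58, FDR = 0.0214) and *Vsir* (0.63, FDR = 0.0458). The *Btla* value was lost without the same 3 libraries, and the *Vsir* value without 9 of the 12, all but *Il6*-/- Day 3 replicate 3 and *Il6*-/- Day 5 replicates 1 and 2. *Vsir* rose between the days by 1.04 in WT and by 1.66 in *Il6*-/- recipients.

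The inhibitory receptors *Ctla4* and *Pdcd1* did not pass by genotype on either day. *Ctla4* averaged 132 ± 8.24 CPM (SD, n = 3) in WT Day 3 and 119 ± 24.0 in *Il6*-/- Day 3, with a log2FC of -0.15 (FDR = 0.609) on Day 3 and -0.16 (FDR = 0.632) on Day 5. *Pdcd1*, which encodes PD-1, averaged 247 ± 17.9 CPM in WT Day 3 and 266 ± 16.4 in *Il6*-/- Day 3 (log2FC 0.10, FDR = 0.730). On Day 5 the log2FC of *Pdcd1* was 0.49 with an FDR of 0.0851, and it passed with the replicate block (FDR = 2.77e-04), with DESeq2 (FDR = 0.0205), with no filter (FDR = 7.73e-06) and without *Il6*-/- Day 5 replicate 1 (FDR = 0.00901). *Icosl*, which encodes the ligand of ICOS, had 3 to 43 reads a library and passed only between the days in *Il6*-/- recipients (log2FC 1.91, FDR = 0.0210). The B7 relatives *Cd276* and *Vtcn1* had at most 2 reads in any library and were not tested.

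In the nectin network of CD226, 4 of 9 genes were tested. On Day 3 only *Tigit*, the inhibitory receptor that shares the ligands of CD226, passed. It was lower in *Il6*-/- recipients, as 6.19% of all genes were. *Tigit* stood at 45.6, 54.7 and 60.2 CPM in WT Day 3 and at 5.54, 7.74 and 9.67 CPM in *Il6*-/- Day 3. On Day 5 it stood at 17.4, 67.5 and 65.2 CPM in WT and at 24.5, 79.8 and 93.2 CPM in *Il6*-/- recipients. All *Il6*-/- Day 3 libraries were under the other 9, and on Day 5 the first library of each genotype was well under its group. The log2FC of *Tigit* was -2.80 ± 0.49 (FDR = 0.00163) on Day 3 and 0.39 ± 0.43 (FDR = 0.681) on Day 5, or 0.41 with an FDR of 0.0146 under the block and 0.40 with an FDR of 0.0145 with no filter. The difference between the days was 3.19 ± 0.65 (FDR = 0.0145). The ratio of *Cd226* to *Tigit* per kb was 0.213 to 0.282 in WT Day 3 and 2.12 to 3.50 in *Il6*-/- Day 3, and 0.184 to 0.882 over the libraries of Day 5.

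*Cd96*, a further receptor of this network (log2FC -0.30, FDR = 0.0855), and *Pvr*, which encodes a ligand of CD226 and TIGIT (0.29, FDR = 0.108), did not pass on Day 3. *Crtam*, which encodes another nectin-family receptor of T cells, had 9, 11 and 3 reads in WT Day 3 and 3, 1 and 0 reads in *Il6*-/- Day 3, and no fold is given. On Day 5 none of the 4 genes passed, none had an unadjusted p under 0.05, and none passed with DESeq2 or limma-voom. Between the days all 4 were higher in *Il6*-/- recipients, beside 30.4% of all genes, and 2 in WT recipients, beside 29.5%.

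All 23 genes of CD28 and ICOS signaling were tested. On Day 3, 1 was higher and 3 were lower in *Il6*-/- recipients, none by 2-fold, so 4 of the 23 passed where 13.7% of all genes did. The phosphatase gene *Ptpn11* was higher (log2FC 0.44, FDR = 0.0293). *Prkcq*, which encodes the kinase PKC-theta that carries the CD28 signal to NF-kappaB, was lower (-0.64, FDR = 1.68e-04), as was the kinase gene *Akt2* (-0.25, FDR = 0.0475). On Day 5, where 4.61% of all genes passed, the only call was *Carmil2*, which encodes a scaffold that CD28 needs for its signal (-0.87, FDR = 0.0105). *Prkcq* was the only 1 whose genotype difference changed between the days (0.64, FDR = 0.00885). These 4 genes were chosen after their values were seen. Both calls of *Prkcq* passed under every alternative run. That of *Ptpn11* was lost with no scaling (FDR = 0.0554) and without WT Day 3 replicate 2 or 3 or *Il6*-/- Day 3 replicate 1 or 2, and that of *Carmil2* without WT Day 5 replicate 1 or 2. That of *Akt2* was lost with no filter on low counts (FDR = 0.0930) and without any 1 of the 6 libraries of Day 3 or without WT Day 5 replicate 2. Exons of *Carmil2* overlap those of *Acd* over 1246 bases.

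Between the days, 9 of the 23 signaling genes were higher and 5 lower on Day 5 in WT recipients, and 13 were higher and 4 lower in *Il6*-/- recipients. That is 14 of 23 in WT recipients, beside 56.7% of all genes, and 17 of 23 in *Il6*-/- recipients, beside 60.5%. At least a 2-fold rise was seen in *Il6*-/- recipients for *Cblb*, which encodes the ubiquitin ligase that sets the need for CD28 (log2FC 1.02, FDR = 2.10e-06), and for the adaptor gene *Gab2* (1.47, FDR = 0.0347) at 12 to 53 reads a library. *Cblb* rose nearly as much in WT recipients, from a mean of 61.3 to 112 CPM, beside 55.1 to 111 CPM in *Il6*-/- recipients. Of 7 genes that control the transcripts or proteins of the family, 1 passed by genotype on Day 3, where 13.7% of all genes did. This was *Cmtm6*, which encodes a protein that stabilizes PD-L1 (-0.26, FDR = 0.0407). It was lost with no filter on low counts (FDR = 0.0698) and without WT Day 3 replicate 1 or 3, any *Il6*-/- Day 3 library or *Il6*-/- Day 5 replicate 3. On Day 5 none of the 7 passed with edgeR, DESeq2 or limma-voom, and 1 had an unadjusted p under 0.05. The Roquin genes *Rc3h1* and *Rc3h2* and *Zc3h12a* (Regnase-1), which destabilize *Icos* transcripts, did not pass by genotype on either day. *Marchf8*, which encodes a ubiquitin ligase for CD86, was lower on Day 5 than on Day 3 within *Il6*-/- recipients (-1.45, FDR = 0.0295) at 6 to 36 reads a library. In WT recipients its mean was 1.10 CPM on Day 3 and 0.601 CPM on Day 5. The *Gab2* value was lost with limma-voom (FDR = 0.05005), limma-trend (FDR = 0.0571) and the replicate block (FDR = 0.0714), and without any *Il6*-/- Day 3 library or *Il6*-/- Day 5 replicate 2 or 3. The *Marchf8* value was lost with upper-quartile scaling (FDR = 0.0562) and the block (FDR = 0.0631), and without *Il6*-/- Day 3 replicate 3 or *Il6*-/- Day 5 replicate 1 or 3.

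**Figure D4:**
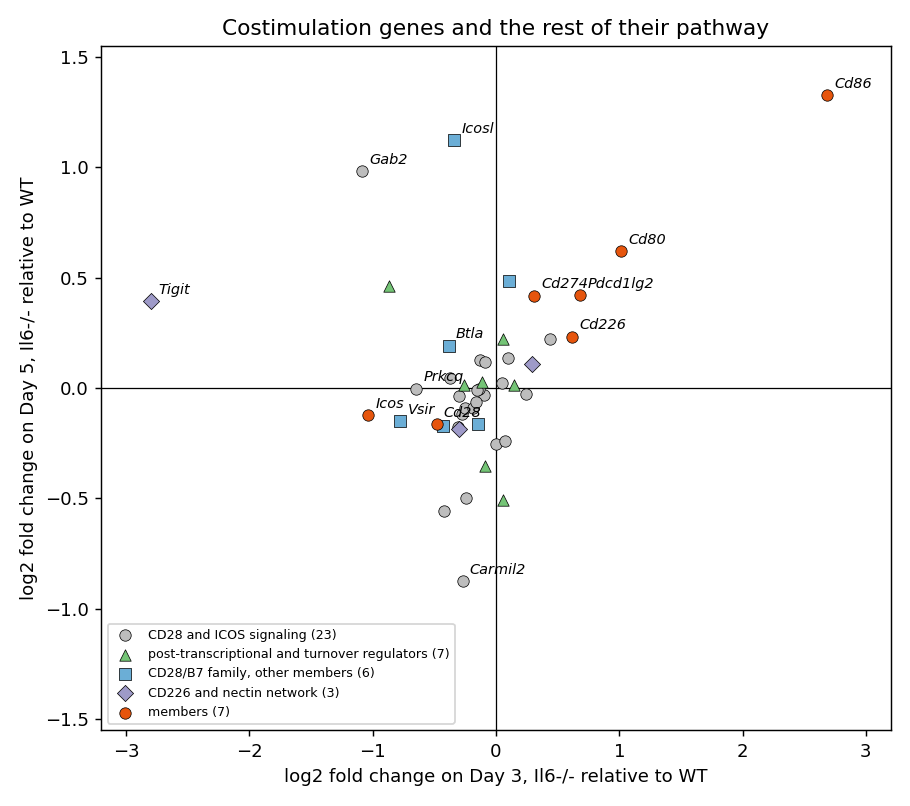
Log2 fold change of *Il6*-/- relative to WT on Day 3 (horizontal axis) against that on Day 5 (vertical axis), with a point for each gene and a color and shape for each list. *Crtam* is left out because of its few reads. *Cd86* (2.69 and 1.33) lies at the top right, *Tigit* (-2.80 and 0.39) at the left, and *Icos*, *Vsir* and *Prkcq* left of 0 on Day 3 and near 0 on Day 5.

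B7 ligands are made in quantity by antigen-presenting cells, so markers of other cells were set beside the ligands. The cells had been sorted after staining for B220, CD4, CD44 and the donor marker CD45.1. All 10 genes of T cell identity were present in every group. On Day 3, where *Cd28* and *Icos* were lower, 3 of these 10 (*Cd2*, *Lat* and *Trac*) were lower too in *Il6*-/- recipients, beside 6.19% of all genes. The sum of the 10 was 7386 to 8714 CPM in WT and 6860 to 6984 CPM in *Il6*-/- recipients. Between the days, all 10 rose in WT recipients, beside 29.5% of all genes, and 9 in *Il6*-/- recipients, beside 30.4%. Of 10 B cell markers 4 were tested, and their sum over all 10 was 5.46 to 8.79 CPM in WT Day 3 and 6.84 to 8.50 CPM in *Il6*-/- Day 3, with *Ms4a1* at no more than 1 read a library on Day 3. On that day 1 B cell gene, *Pax5*, passed, lower in *Il6*-/- recipients. Of 16 myeloid and dendritic cell markers 9 were tested and none passed by genotype on either day with edgeR, DESeq2 or limma-voom, with 1 at an unadjusted p under 0.05 on Day 3 and 0 on Day 5. Their sum was 104 to 115 CPM in WT Day 3 and 103 to 105 CPM in *Il6*-/- Day 3, most of it *Cst3*, with *Itgax* and *Clec9a* at 0 reads in all libraries of Day 3. On Day 5, where *Cd86* and *Cd274* were higher, the B cell sum was 7.79 to 10.1 CPM in WT and 10.5 to 11.7 CPM in *Il6*-/- recipients, without a call, and the myeloid sum 123 to 171 and 129 to 140 CPM.

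Some genes that other cells share with T cells, *Cd74* and *Klrb1c* among them, were higher with *Cd86* on Day 3, where 13.7% of all genes passed. *Cd74*, which encodes the invariant chain, was the only 1 of 6 MHC class II genes tested to pass (log2FC 1.29, FDR = 1.68e-04), while the sum of the list was 71.7 to 104 CPM in WT Day 3 and 110 to 123 CPM in *Il6*-/- Day 3. Most of that sum was *H2-DMa*, with means of 65.6 and 73.0 CPM. *Klrb1c*, from the list of NK and CD8 T cell markers, was higher on Day 3 (2.11, FDR = 7.74e-06) and lower on Day 5 (-0.60, FDR = 0.0497), with *Klra4* and *Klra8* at 0 reads in each library. Of the 5 genes of that list tested, *Klrb1c* was the only 1 to pass by genotype with edgeR. The Day 5 value of *Klrb1c* did not pass under 13 of 23 alternatives, no scaling (FDR = 0.0659) and each library of Day 5 left out among them. That list summed to 62.8 to 75.4 CPM in WT Day 3 and 83.9 to 114 CPM in *Il6*-/- Day 3. Most of it was *Cd8b1*, with means of 62.7 and 74.7 CPM, while *Cd8a* averaged 0.835 and 1.04 CPM. Of 6 regulatory T cell markers, 3 were higher and 1 lower on Day 3, beside 7.52% and 6.19% of all genes. Their sum was 137 to 166 CPM in WT and 200 to 243 CPM in *Il6*-/- recipients. *Foxp3* itself did not pass (-0.58, FDR = 0.311). *Ikzf2* averaged 69.7 CPM in WT Day 3 and 51.2 CPM in *Il6*-/- Day 3, and *Nrp1* 22.7 and 49.1 CPM. Most of the difference in the sum lay in other genes of the list. On Day 5, 1 of the 6, *Nrp1*, was higher (0.95, FDR = 0.0124), as it was on Day 3 (1.11, FDR = 0.00250), and 2 of the 6 passed with DESeq2. The Day 5 value of *Nrp1* was lost without WT Day 5 replicate 1 or 2 or *Il6*-/- Day 5 replicate 3. On Day 5 the 3 lists had overlapping sums, except that of the regulatory T cell markers, at 271 to 301 CPM in WT and 304 to 393 CPM in *Il6*-/- recipients. The part of any other cells in the levels of the 7 genes was not tested.

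Across the 12 libraries, *Cd28* and *Icos* followed each other with r = 0.95 on log2 CPM, *Cd226* and *Cd86* with r = 0.93, *Cd86* and *Pdcd1lg2* with r = 0.89, and *Cd274* and *Pdcd1lg2* with r = 0.81. *Cd28* and *Cd86* had r = -0.18. The 12 libraries fall into 4 groups and each value of a library shares its depth and scaling factor, so these values describe how alike the courses were and carry no p. Of all genes tested, those most like *Cd28* were *Gm26740*, *Selenop* and *Tspo* (r = 0.99, 0.98 and 0.98), and like *Icos* were *Akap12* and *Lipa* (0.98 and 0.97). Most like *Cd86* were *Unc93b1*, *Chst2* and *Mir155hg* (0.98, 0.96 and 0.96), and most like *Pdcd1lg2* were *Mir155hg*, *Sik1* and *Gsap* (0.96, 0.96 and 0.95). Most like *Cd274* were *Xdh*, *Il10ra* and *BC049352* (0.99, 0.98 and 0.95), and most like *Cd226* were *Gm10804*, *Cd86* and *Lta* (0.94, 0.93 and 0.93). For *Cd80* the highest r was 0.83, with *Gm4786*.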

How the data were processed

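Poly(A) RNA of sorted OTII cells was sequenced as single-end reads. The submitters' processing notes list Trim Galore (version 0.4.4), STAR (version 2.5.2a), HTSeq (version 0.6.1p1) and the build GRCm39, and by the paper's methods the authors counted without strand. Raw counts were deposited per library for 40840 gene symbols. A second deposited table holds log2 CPM for 11258 genes, 6 of the 7 described here among them, which was used in an alternative. Depth was 16125947 to 26111657 counted reads.

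Counts were fitted in R 4.3.3 with edgeR 4.0.16 (TMM, filterByExpr, quasi-likelihood test, 1 coefficient per group, 12 libraries), and 13570 genes were tested with Benjamini-Hochberg adjustment over all of them. A gene passed at an FDR under 0.05. The fit was tested on simulated counts. With 3 libraries against 3, an exact permutation test of 1 gene cannot go below p = 0.1, so none was used. Likeness is Pearson's r on log2 CPM with a prior count of 2.

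The 7 genes, the gene lists and the tests were chosen with earlier results of these data known. Named are the 7 genes, *Ctla4*, *Pdcd1*, *Icosl* and *Tigit*, genes of the pathway lists that passed with at least a 2-fold change in a comparison of 2 groups, and the 3 genes most like each of the 7. Other names were chosen after their values were seen. Values of 3 genes of these lists are not reported here. The deviations of same-numbered libraries of the 2 genotypes correlated at 0.24, 0.21 and 0.13 on Day 5 and at 0.03 to 0.06 on Day 3, so the numbers were taken to pair the Day 5 libraries. On both days each library correlated best with its own number in the other genotype. The pairing comes from the data, since no label states it. For comparisons between the days, the block joined same-numbered libraries of 1 genotype. Their deviations correlated at 0.07, -0.04 and -0.04 in WT and at -0.07, -0.05 and -0.06 in *Il6*-/- recipients. A pairing between the days was thus not shown. The alternatives were other scalings (RLE, upper-quartile, none), other filters, DESeq2 1.42.0, limma 3.58.1 (voom, and trend on the deposited table), a replicate block, the compared groups alone, and each library left out.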

Additional observations from a re-analysis of the deposited data

Results flagged for a closer look

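The genotype difference itself differed between Day 3 and Day 5 for 8 genes of the lists used here, and for 668 of all 13570 genes tested, by a test of the Day 5 minus Day 3 log2 change of *Il6*-/- against WT (edgeR, FDR under 0.05). It differed for *Icos* by 0.91, with the *Il6*-/- libraries under those of WT on Day 3 and overlapping them on Day 5. For *Cd86* it differed by -1.36, with *Il6*-/- libraries higher on both days. Of the other genes of the pathway, *Tigit* differed by 3.19, *Prkcq* by 0.64, *Vsir* by 0.63 and *Btla* by 0.58. Of the marker lists, *Cd74* of the MHC class II genes differed by -1.04 and *Klrb1c* of the NK and CD8 T cell markers by -2.70. The *Cd74* value was lost without WT Day 3 replicate 3, *Il6*-/- Day 3 replicate 1 or *Il6*-/- Day 5 replicate 2. No cause was tested.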

How the results depend on the processing

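Over 23 alternatives and 35 values of the 7 genes there were 778 recomputed values, of which 730 kept direction and side of the threshold, 24 lost a call, 17 gained one and 7 turned sign. The sign turned for *Cd226* between the days in *Il6*-/- recipients under upper-quartile scaling (0.16) and no scaling (0.085), which shifted the median of all genes in that comparison by 0.23 and 0.15 (upper-quartile scaling also by 0.20 in WT). Leaving out 1 library in turn gave *Cd80* -0.89 to 0.47 for the difference between the days' genotype changes, -0.12 to 1.15 between the days in WT and -0.21 to 0.75 in *Il6*-/- recipients, *Tigit* -0.012 to 0.79 and *Ctla4* -0.30 to 0.017 by genotype on Day 5. On Day 3, 5 of the 7 genes passed without each library. On Day 5, where 2 passed, 3 did so with no filter, with DESeq2 and with the replicate block (*Pdcd1lg2* being added), 1 with the compared groups alone, and 1 to 2 without single libraries. The genotype change differed between the days for 1 to 3 of the 7 without single libraries. The WT rise of *Icos* (0.23) was lost with RLE scaling, no filter, DESeq2 and the WT libraries alone, and without 7 single libraries (0.12 without WT Day 5 replicate 3), and that of *Cd226* without a filter (FDR = 0.0588).

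All genes passing on Day 5 numbered 626, against 1397 without a filter, 1094 with DESeq2, 359 with the groups alone and 225 to 1169 without single libraries. For the difference between the days they numbered 668, against 1300, 1111 and 235 to 943, and on Day 3 1861 against 942 to 2042. With replicate number as a block, 1592 genes passed on Day 5 and 1564 for the difference. The block also gave a call for *Cd274* on Day 3 (FDR = 0.0419). There same-numbered libraries correlated at only 0.03 to 0.06, although each did so best with its own number. Another block call was that of *Cd86* between the days in *Il6*-/- recipients (FDR = 0.0321). Same-numbered libraries of the days compared correlated there at -0.07 to -0.05. *Cd80* was not tested under filters it did not pass. Depth limits *Cd80*, *Icosl*, *Crtam*, *Gab2* and *Marchf8*.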
